A study of Drosophila melanogaster with 19 samples.

Results

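The mRNAs of 5 repressors of translation and factors of mRNA decay, brat, pum, 4EHP, Patr-1 and me31B, were followed through every deposited table of RNA bound by Armi or Piwi in ovarian somatic cells (OSC). They were selected by gene symbol and are 5 of the 12013 transcripts that carry a symbol in the table of Armi mutants. Armitage (Armi) is an RNA helicase of the piRNA pathway, and OSC is a Drosophila cell line of ovarian somatic, follicle-like cells that makes piRNAs without germline cells. The groups were untreated cells with Armi iCLIP (2 libraries) and Piwi small RNA (1 library), EGFP RNAi (control KD) and Yb RNAi (Yb KD) with Armi iCLIP (2 libraries each) and Piwi small RNA (1 each), EGFP RNAi and Zuc RNAi (Zuc KD) with Armi CLIPPARE (2 each), and cells transfected with Myc-Armi-WT, Myc-Armi-D862A or Myc-Armi-R949A with anti-Myc iCLIP (2 each). In iCLIP and CLIPPARE, RNA crosslinked by UV to Armi was recovered, and in CLIPPARE an adapter was joined to the 5′ ends of the bound RNA before RNase digestion. Nothing in the labels says that endogenous Armi was removed from the transfected cells, or that replicates were separate cultures, so p-values measure only the spread between these libraries.

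In the somatic piRNA pathway of the fly ovary, Yb gathers Armi and piRNA precursors in perinuclear bodies, the endonuclease Zucchini (Zuc) cuts the precursors at mitochondria, and the resulting piRNAs load Piwi. Some mRNAs, through their 3′ ends above all, also enter this pathway and yield genic piRNAs. Translational repressors act on mRNAs in the cytoplasm: sequence-specific proteins such as Brat and Pumilio bind the 3′ UTR, 4EHP occupies the cap, and Patr-1 and Me31B act in the complexes that remove the cap. What is measured here is Armi or Piwi bound to the mRNAs that encode these proteins, not the proteins or their activity.

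The tables give RPM per transcript, its reads scaled to the size of the library, and every value was a whole number of reads, so reads were recovered. Column totals were 812634 to 10427628 reads, of which 12.8 to 63.8% lay in the table. The knockdown and Myc-Armi iCLIP tables give each condition a single column for its 2 listed libraries, so these comparisons, like those of Piwi small RNA, have no replicates, no test and no p-value, and their 95% intervals (exact, conditional on the summed reads) cover counting error only. In the libraries labelled Yb KD, the Yb gene fs(1)Yb stood at 23.8 RPM in Armi iCLIP against 269 in control KD, and at 44.5 RPM (38 reads) in Piwi small RNA against 29.5 (24 reads). Relative to the table median, the log2 difference of fs(1)Yb was -5.03 on Armi and -1.43 on Piwi. The genotype label of the latter Yb KD library names EGFP RNAi, so that assignment rests on its title and column name, and both knockdown Piwi libraries list an anti-c-Myc antibody where their protocol names anti-Piwi. In CLIPPARE, zuc had 9 and 20 reads in control KD and 2 and 12 in Zuc KD, too few to check the labels. The armi mRNA stood at 3951 to 5235 RPM in the 3 Myc-Armi columns and at 133 and 148 RPM in untreated Armi iCLIP. Of the follicle cell markers, 6 or 7 of 7 reached 5 RPM in each column (summed 2295 to 8198 RPM), against 2 to 4 of 7 germline markers (summed 97.2 to 374 RPM, mostly spn-E, with osk at most 0.876) and 2 to 4 of 6 hemocyte markers (summed 48.5 to 442 RPM, with Hml at most 0.930). The follicle sum was mostly tj in untreated Armi iCLIP (3040 of 3665 and 2754 of 3363 RPM). In Yb KD Armi iCLIP the highest follicle marker gave 1170 of 3000 RPM. All these sums count bound RNA, so they also depend on which mRNAs Armi and Piwi bind. The highest hemocyte sum was that of the Yb KD Piwi library, and its part in the results was not tested.

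Each member had 1 transcript in the tables, and the authors' deposited table puts brat (on 2L) and Patr-1 (on 3R) in its High class of piRNA level and pum, 4EHP (both on 3R) and me31B (on 2L) in its Middle class. How the classes were made is not given in the sources used here, and they may draw on these same libraries. The RefSeq annotation lists 3 genes that overlap brat, 2 that overlap 4EHP and 2 that overlap pum, and none for Patr-1 and me31B. The overlapping genes with a row in the tables reached at most 9.30 RPM in any column at brat and were listed at 0 at 4EHP and pum. Because RPM are not divided by transcript length, levels are compared within a gene and not between genes.

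In untreated cells, Armi bound brat at 2255 and 2153 RPM, a mean of 2204 ± 72.0 (SD, n = 2), and Piwi small RNA from brat stood at 1286 RPM. Brat is a TRIM-NHL protein that represses target mRNAs such as hunchback and acts as a tumour suppressor in neural stem cells. The pum mRNA was at 107 and 88.6 RPM on Armi and 76.5 RPM on Piwi. Pumilio is the founding PUF protein, which binds 3′ UTRs and recruits the CCR4-NOT deadenylase. The 4EHP mRNA was at 199 and 192 RPM on Armi and 80.4 RPM on Piwi. The 4EHP protein binds the cap without recruiting the initiation machinery. Patr-1, which encodes the fly Pat1 activator of decapping, was at 994 and 916 RPM on Armi and 605 RPM on Piwi. The me31B mRNA, which encodes the DDX6-type DEAD-box helicase of repressed mRNPs, was at 25.96 and 23.9 RPM on Armi and 25.7 RPM on Piwi. The 2 untreated Armi libraries differed over 3365 transcripts by more than sampling noise (chi-square per degree of freedom 2.12).

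**Figure D1:**
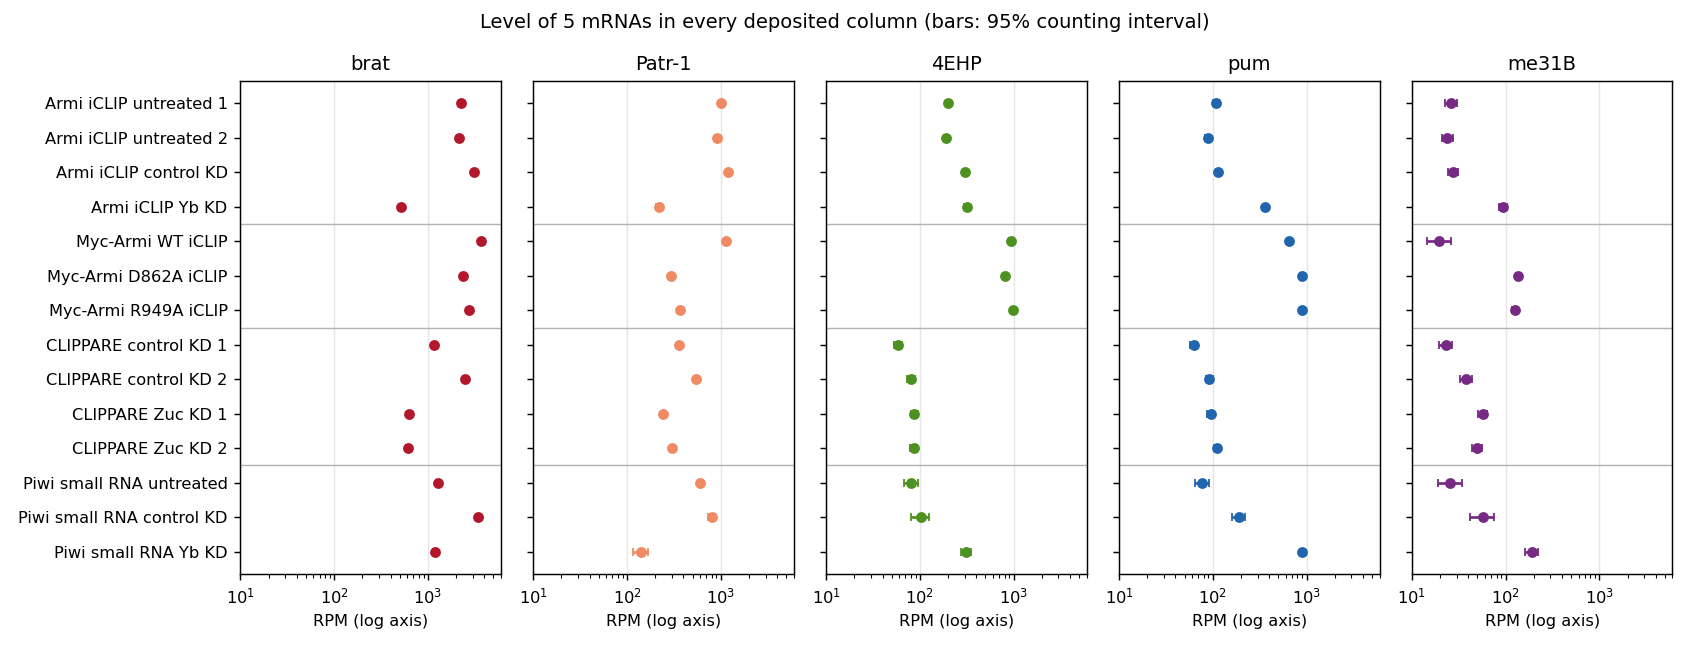
Level of each member in all 14 columns, in RPM on a log axis, with 95% counting intervals; grey lines part Armi iCLIP, Myc-Armi iCLIP, CLIPPARE and Piwi small RNA. The lowest brat value is that of Yb KD Armi iCLIP (519.9 RPM), while the lowest pum value is that of CLIPPARE control KD replicate 1 (62.8 RPM) and me31B is highest in Yb KD Piwi small RNA (189 RPM).

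Piwi small RNA and Armi iCLIP of untreated cells gave none of the 5 members at least 2-fold from the table median, where 17.3% of the 3189 transcripts averaging 5 RPM or more lay 2-fold below it and 18.5% above. The median transcript had a log2 ratio of Piwi to Armi of -0.66. Relative to that median, the log2 ratio was -0.11 for brat, 0.31 for pum, -0.61 for 4EHP, 0.0054 for Patr-1 and 0.71 for me31B. The largest spread among members was thus between me31B and 4EHP, and the interval of the deposited me31B ratio, 0.746 to 1.41, did not reach that of 4EHP, 0.346 to 0.487. Both High-class members lay low within their class, where the median transcript was at 0.84: 37 of 238 High-class transcripts were below brat and 42 below Patr-1.

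As deposited, Yb KD left brat and Patr-1 with far less Armi signal and the other members with as much or more. Of the reads, 34.2% lay in the table in Yb KD and 20.5% in control KD. Over the 4039 transcripts tested for size, the median RPM was 2.99 times that of control KD, a log2 ratio of 1.58, so that each member was read both as deposited and against that shift. At 2-fold, 3 of 5 members lay below the table median and 0 above, against 19.8% of all transcripts below and 9.51% above. The brat mRNA measured 3109 RPM with control RNAi and 519.9 RPM with Yb RNAi, 5.98-fold lower (5.73 to 6.24). Patr-1 was at 1209 and 219 RPM, 5.52-fold lower (5.17 to 5.89). Against the median these are log2 differences of -4.16 and -4.04, the 19th and 29th lowest of 4039. Only 12 and 17 of the 238 High-class transcripts lay lower than brat and Patr-1, whose class median was -2.12.

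The Middle-class members parted from these 2. 4EHP was nearly level as deposited, going from 305 to 314 RPM (ratio 1.03, 0.967 to 1.10), which places it 1.54 below the table median on the log2 scale and at -0.69 when both columns were scaled to the same sum of reads in the table. The pum mRNA went from 114 to 356 RPM, a ratio of 3.12 (2.89 to 3.36) and 0.050 from the median. The me31B mRNA went from 27.3 to 92.7 RPM, a ratio of 3.39 (2.91 to 3.96) and 0.14 from the median. With equal sums of reads in the table pum came to 0.90 and me31B to 1.02, the latter past 2-fold above. The count of 0 members above thus depends on the scaling. The Middle-class median was -0.59, so 4EHP lay below it and pum and me31B above it.

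In the Piwi library labelled Yb KD, brat and Patr-1 were again the low members. Of its reads 54.7% lay in the table, against 18.6% in control KD. The table median was higher here too, 4.01 times control KD over 4924 transcripts, and 18.2% lay 2-fold below it and 12.5% above it, against 2 of 5 members below and 0 above. Patr-1 measured 799.9 RPM with control RNAi and 139 RPM with Yb RNAi, 5.74-fold lower (4.71 to 7.03). This is -4.52 against the median, with 6 of 238 High-class transcripts lower. The brat mRNA was at 3396 and 1202 RPM, 2.82-fold lower (2.63 to 3.04) and at -3.50, with 30 High-class transcripts lower.

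The remaining members were higher as deposited. The pum mRNA went from 188 to 905 RPM, a ratio of 4.81 (4.03 to 5.75), 4EHP from 102 to 308 RPM, a ratio of 3.02 (2.35 to 3.91), and me31B from 56.6 to 189 RPM, a ratio of 3.33 (2.39 to 4.73). Relative to the median they were at 0.25, -0.42 and -0.29, and with equal sums of reads in the table the last 2 became 0.035 and 0.18, so no direction is given for them. The change in Piwi less that in Armi, both relative to their medians, was 0.66 for brat, 0.20 for pum, 1.12 for 4EHP, -0.48 for Patr-1 and -0.43 for me31B. Relative to the medians 4EHP thus differed most between the assays: it trailed the table in Armi iCLIP and stood near the median in Piwi small RNA. With equal sums of reads in the table, 4EHP came to -0.69 on Armi and 0.035 on Piwi. On that scale Patr-1 came to -3.20 and -4.06 and me31B to 1.02 and 0.18, so which member differed most depends on the scaling.

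**Figure D2:**
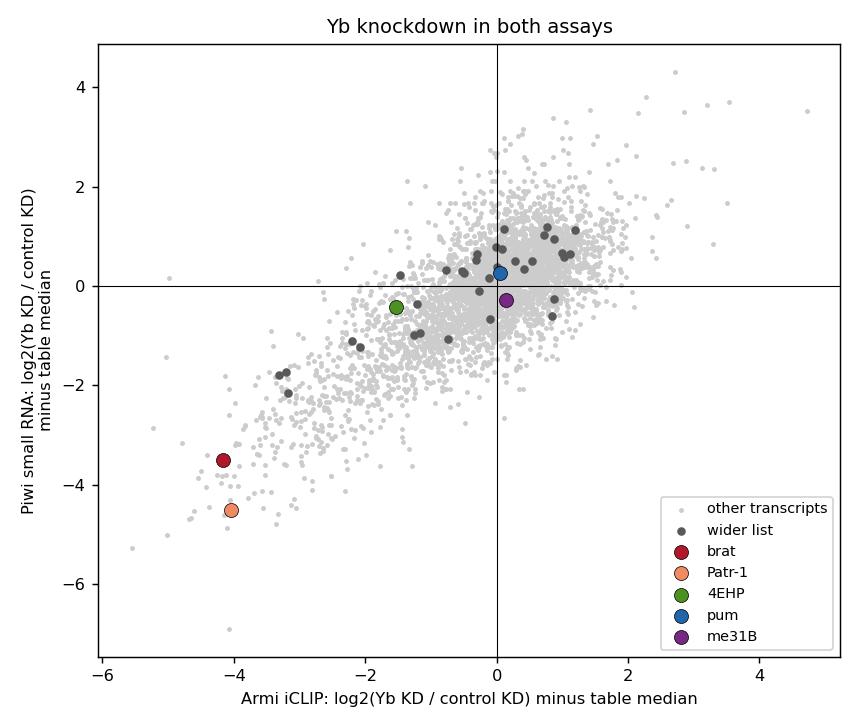
Yb KD in both assays, 1 point per transcript: log2 ratio to control KD minus the table median, for Armi iCLIP on the horizontal and Piwi small RNA on the vertical axis. Patr-1 and brat lie at the lower left (-4.04 and -4.52, -4.16 and -3.50), 4EHP at -1.54 and -0.42, and pum and me31B near the origin.

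The Myc-Armi tables set 2 substitutions in Armi, named D862A and R949A in the labels, against the wild-type protein, and both comparisons share the wild-type column. Against WT, the table median was 3.31 times higher in D862A (4585 transcripts) and 3.19 times in R949A (4473 transcripts), and 63.3 and 63.8% of the reads lay in the table against 33.2% in WT. In D862A, 4 members were at least 2-fold below the median and 1 above, where 26.3% of all transcripts were below and 26.7% above. In R949A, 4 members were below and 0 above, with 25.3 and 26.3% of all transcripts. A difference past 2-fold was thus common in these tables.

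Patr-1 was the lowest member in both mutants. It stood at 1140.0 RPM in WT, 293 RPM in D862A and 367 RPM in R949A, which is 3.90-fold lower (3.67 to 4.13) in D862A and 3.11-fold lower (2.94 to 3.29) in R949A. Relative to the median this was -3.68 and -3.31, with 4 and 14 of 238 High-class transcripts lower. The brat mRNA, by contrast, was at 3647 RPM in WT, 2362 RPM in D862A and 2722 RPM in R949A, 1.54-fold (1.504 to 1.58) and 1.34-fold (1.31 to 1.37) lower. At -2.35 and -2.10 against the median, it lay near its class median of -1.83 and -1.69, with 70 and 82 of the 238 below it. The 2 High-class members, close together under Yb KD in Armi iCLIP, were thus apart in the mutants.

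For the cap-binding and PUF members the deposited RPM changed by less than the table median did. 4EHP stood at 934 RPM in WT, 809.6 RPM in D862A and 978 RPM in R949A, ratios of 0.866 (0.825 to 0.910) and 1.05 (0.998 to 1.10). The pum mRNA stood at 645, 904 and 885 RPM, ratios of 1.40 (1.33 to 1.48) and 1.37 (1.30 to 1.45). Relative to the median they were at -1.93 and -1.61 for 4EHP and at -1.24 and -1.22 for pum, and with equal sums of reads in the table pum came to -0.44 and -0.49.

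Relative to the table median, the me31B mRNA lay above while the other 4 lay below. It had 19.6 RPM in WT, from only 50 reads, 136 RPM in D862A and 125 RPM in R949A, ratios of 6.94 (5.21 to 9.42) and 6.37 (4.78 to 8.66). Relative to the median it was at 1.01 and 0.93, on either side of the 2-fold line. With equal sums of reads in the table me31B came to 1.85 and 1.71. Of the Middle-class transcripts, 701 of 725 lay below me31B in D862A and 697 of 727 in R949A.

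The 2 mutants differed little from each other for these genes. Over 4963 transcripts the median log2 ratio of R949A to D862A was -0.024, 3.49% lay 2-fold below and 2.04% above, and 0 members were past 2-fold. As deposited the ratio was 1.15 (1.13 to 1.18) for brat, 1.21 (1.16 to 1.26) for 4EHP and 1.25 (1.18 to 1.34) for Patr-1. For pum it was 0.979 (0.943 to 1.02) and for me31B 0.918 (0.830 to 1.02), intervals that hold 1. Counting error alone does not cover the first 3 differences, and the spread between libraries behind each column is unknown.

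**Figure D3:**
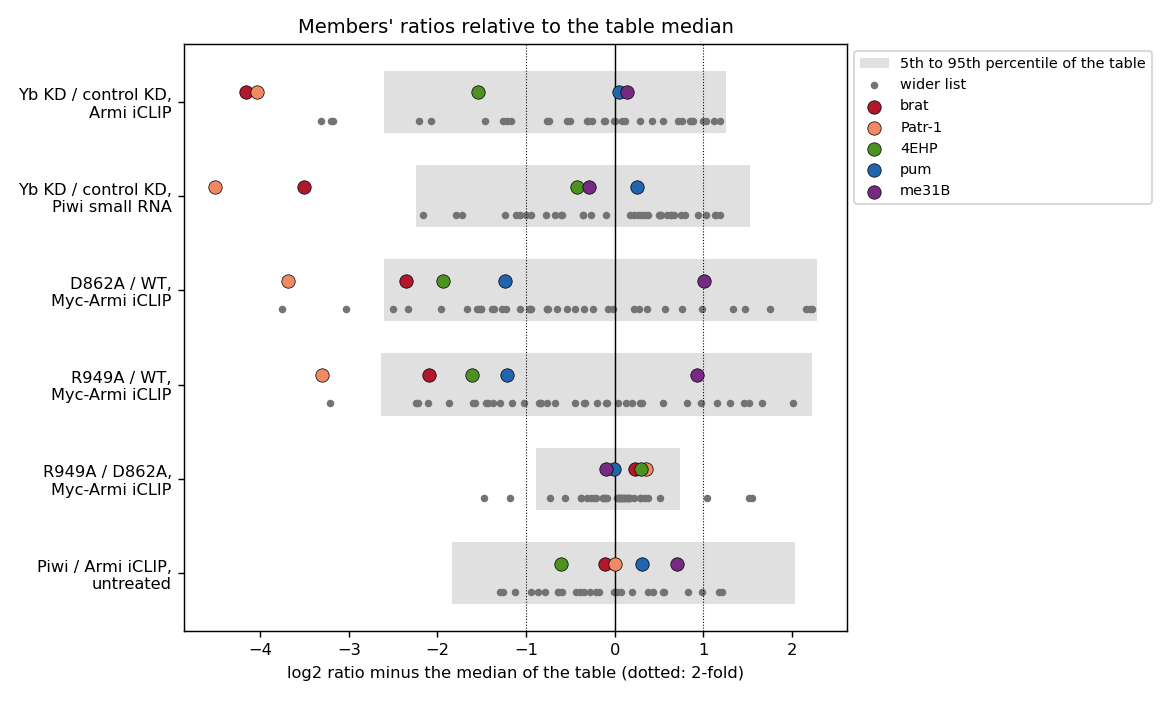
Log2 ratio minus the table median for the 5 members (coloured) and the wider list (small grey points) in 6 comparisons; bands span the 5th to 95th percentile of all transcripts averaging 5 RPM or more and dotted lines mark 2-fold. Patr-1 lies outside the band in both Yb KD and both mutant comparisons, brat in both Yb KD comparisons, and pum and me31B lie inside it in all 6.

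The untreated and Myc-Armi WT columns also differed by member, in tables that were made separately. Relative to a median log2 ratio of 0.67 over 3170 transcripts, WT Myc-Armi over untreated Armi was 0.058 for brat and -0.41 for Patr-1. It was 2.04 for pum and 1.58 for 4EHP, and -0.996 for me31B. The tagged protein, its level and the antibody all differ between these tables and cannot be told apart.

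Zuc KD against control KD in CLIPPARE is the comparison with 2 columns in each group, and there brat fell while no other member passed the test. The limma fit on log2(RPM + 1) over 4006 transcripts (mean of 5 RPM or more) called 1 of 5 members lower and 0 higher at a Benjamini-Hochberg adjusted p of 0.05, against 2.77% of transcripts that fell and 11.8% that rose. At an unadjusted p under 0.05 the fit had 2 members and 30.5% of transcripts. On the recovered reads edgeR called 2 members and 15.2% of transcripts, and DESeq2 2 members and 6.35%. The brat mRNA stood at 1166 and 2484 RPM in control KD and at 623 and 610.1 RPM in Zuc KD. Its mean was 1825 ± 932 (SD, n = 2) against 616 ± 8.82 (SD, n = 2), a limma log2 change of -1.46 (SE 0.50, adjusted p = 0.0327). The 2 controls of brat lay farther apart than those of the other members, and both lay above both Zuc KD libraries.

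Patr-1 stood at 361 and 543 RPM in control KD and at 241 and 303 RPM in Zuc KD, a log2 change of -0.71 (SE 0.43, limma adjusted p = 0.252). The me31B mRNA stood at 22.9 and 37.9 RPM against 56.6 and 49.4 RPM, a log2 change of 0.82 (SE 0.34, limma adjusted p = 0.0821). The pum mRNA was at 62.8 and 92.1 RPM against 95.2 and 112 RPM, and 4EHP at 58.2 and 80.5 RPM against 87.0 and 86.2 RPM, log2 changes of 0.43 and 0.33 near the median change of all transcripts, 0.33. In each of the 5 members the 2 groups did not overlap, which 60.5% of all transcripts tested also showed.

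Much of the spread was a shift between the 2 control libraries, the median transcript being 0.47 higher on the log2 scale in the second than in the first, against 0.040 between the Zuc KD libraries. With each library centred on its median, where 14.2% of transcripts fell and 9.46% rose, limma called both High-class members: brat at -1.80 (adjusted p = 5.24e-04) and Patr-1 at -1.04 (adjusted p = 3.84e-03). The 4EHP change became -0.00040, so its direction depends on the scaling. The brat call was lost with no filter on low values (limma adjusted p = 0.320). It was also lost with the replicate number as a block (limma adjusted p = 0.117), although these numbers did not pair the libraries. Without Zuc KD replicate 1 or 2 the brat call was lost too, at log2 changes of -1.48 and -1.45. Without control KD replicate 1 limma called 3 members and 33.7% of all transcripts tested, and without control KD replicate 2 it called all 5 members and 50.2% of transcripts, with brat at -0.92 and Patr-1 at -0.42. With 1 library left in a group, the fit assumes that it varies like the other group.

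**Figure D4:**
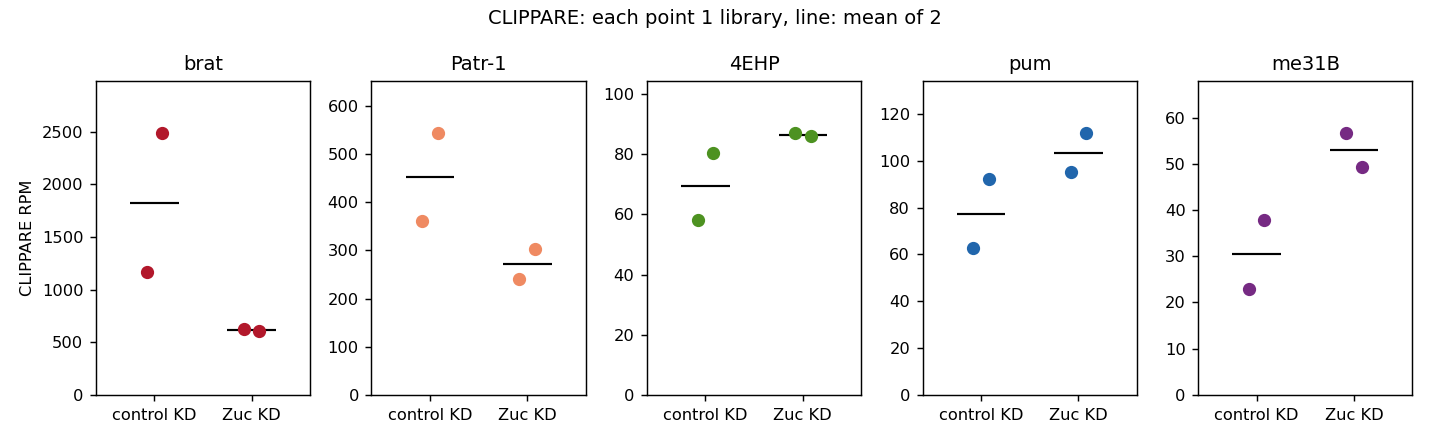
CLIPPARE level of each member in RPM, 1 point per library and a line at the mean of 2, in control KD and Zuc KD; each panel has its own axis from 0. In brat and Patr-1 both Zuc KD points lie below both control points, and in 4EHP, pum and me31B above, with the brat controls at 1166 and 2484 RPM.

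The pathway around the members was described with a list of 49 transcripts matched of 63 genes named: 20 cap-binding and other repressors, 6 of the CCR4-NOT and PAN deadenylases, 9 of decapping and 5′ to 3′ decay and 14 of the exosome and ribosome rescue. Under Yb KD in Armi iCLIP, 34 averaged 5 RPM or more, with a median of -0.11 relative to the table. Of these 34, 9 lay at least 2-fold below and 3 above, against 19.8% and 9.51% of all transcripts. The deadenylases had a median of 0.42 and none of 6 was 2-fold away. The lowest of the list was mei-P26, a TRIM-NHL relative of brat, going from 1565 to 469.9 RPM, -3.32 against the median. Next to it stood Tis11, a zinc-finger protein that binds AU-rich elements, at 1753 and 569.8 RPM (-3.20). The highest was Ge-1, a scaffold of the decapping complex, at 12.2 and 89.1 RPM (1.19). It was the highest of the 34, but averaged 20 RPM or more only through its Yb KD value.

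Read by the authors' class, the list was as follows. The 6 High-class list transcripts, orb2, mei-P26, AGO1, Hrb27C, tral and Tis11, had a median of -2.62 against -2.12 for all 238 High-class transcripts, and 4 of 6 against 174 of 238 were 2-fold below. The 2 that were not are AGO1, the miRNA Argonaute, which went from 309 to 656 RPM (-0.50), and Hrb27C, an hnRNP, from 1509 to 3123 RPM (-0.53). The tral mRNA, whose protein is a partner of Me31B, went from 434 to 308 RPM (-2.07). Among other list genes with much signal in untreated cells, Not1, the scaffold of CCR4-NOT, went from 117 to 578 RPM (0.72), the deadenylase subunit PAN3 from 71.8 to 176 RPM (-0.30), and the decapping enhancer Edc3 from 51.2 to 309.8 RPM (0.99). Of the decay helicase and rescue factors, Mtr4 went from 54.4 to 34.9 RPM (-2.21), pelo from 15.2 to 27.9 RPM (-0.74) and HBS1 from 9.78 to 29.0 RPM (-0.10).

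In the Piwi library labelled Yb KD, the list median was 0.28 over 38 transcripts. Where 18.2% of all transcripts lay at least 2-fold below and 12.5% above, the list had 6 below and 4 above. The lowest was orb2, a CPEB-family repressor, at 59.1 and 52.7 RPM (-2.17), and the highest was how, a KH-domain RNA-binding protein, at 49.2 and 457 RPM (1.18). No list transcript averaging 20 RPM or more was thus as low as brat or Patr-1 in either assay.

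In the Myc-Armi tables the list median was -0.76 in D862A (40 transcripts, 15 below and 6 above 2-fold) and -0.40 in R949A (38 transcripts, 13 below and 6 above). Of all transcripts, 26.3% lay 2-fold below and 26.7% above in D862A, and 25.3% below and 26.3% above in R949A. Among list transcripts averaging 20 RPM or more, Tob, an adaptor of the deadenylase, was lowest in both mutants. It stood at 47.2 RPM in WT, 18.5 in D862A and 15.6 in R949A (-3.03 and -3.21), and reached the 20 RPM limit only through its WT value. In D862A orb lay lower, at 12.2 RPM in WT and 2.23 RPM (-3.75), but averaged under 20 RPM. Highest in D862A among those averaging 20 RPM or more was LSm1, of the ring that binds decapping substrates, at 1.57 RPM in WT and 38.7 RPM (2.22). Its ratio rests on very few reads in WT, and it reached the 20 RPM limit only through its D862A value. In R949A the highest was Ge-1, at 14.9 and 124 RPM (1.30), which reached the 20 RPM limit only through its R949A value. LSm1 lay above Ge-1 there, at 32.3 RPM (2.02), but averaged under 20 RPM. All 6 High-class list transcripts were at least 2-fold below the median in each mutant, as were 194 and 195 of all 238. Between the mutants the list median was 0.066 over 42 transcripts. Those averaging 20 RPM or more ran from the exosome subunit Mtr3 at -0.56 to the exonuclease Rat1 at 1.54. Rat1 reached the 20 RPM limit only through its R949A value. For Piwi against Armi in untreated cells the list median was -0.21 over 27 transcripts. List transcripts averaging 20 RPM or more ran there from the initiation factor eIF4E1 at -1.30 to tral at 1.18. The eIF4E1 mRNA reached the 20 RPM limit only through its Armi value.

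In CLIPPARE, 30 list transcripts were tested, with a median log2 change of 0.59 against 0.33 for all. Limma called 3, of which 1 fell and 2 rose, where 2.77% of all transcripts tested fell and 11.8% rose. The orb2 mRNA fell, from 47.2 and 94.9 RPM in control KD to 29.8 and 28.9 RPM in Zuc KD (log2 change -1.16, limma adjusted p = 0.0115). The how mRNA rose, from 34.9 and 36.6 to 78.0 and 92.5 RPM (1.23, adjusted p = 0.00864), as did twin, the catalytic deadenylase CCR4, from 12.8 and 18.0 to 29.5 and 34.0 RPM (1.01, adjusted p = 0.0239). Of the other High-class list members, mei-P26 had a log2 change of -1.06 (adjusted p = 0.0867), Tis11 -0.98 (0.0885) and tral -0.65 (0.283), none past the threshold. Limma called 0 list transcripts without Zuc KD replicate 1 or 2 (0.358% and 0.484% of all transcripts tested) and with no filter (0.457%). It called 16 without control KD replicate 1 (33.7% of all), 24 without control KD replicate 2 (50.2%) and 8 with libraries centred (23.7%).

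Across all 14 columns, each centred on its median, the level of brat was most like that of Patr-1 among the members (Pearson's r = 0.91), and 4EHP and me31B ran most opposite (r = -0.82). These are descriptions over columns that are not independent, since they come from the same cell line and share assays. Depth differed between columns, also within a table. Among 2292 transcripts, those most like brat were CG9171, Vha55 and HipHop (r = 0.96 for each), with Patr-1 the 26th. Those most like Patr-1 were CG11360, CG9940 and l(2)gl (r = 0.99, 0.99 and 0.98), with brat the 82nd. For pum they were CG13624, CG9932 and S6k (r = 0.95, 0.94 and 0.93), for 4EHP l(3)L1231, Sur-8 and Mkrn1 (r = 0.94, 0.92 and 0.92), and for me31B Upf2, CG10321 and Wnt5 (r = 0.95, 0.92 and 0.92).

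In bulk libraries such as these, fewer bound molecules, fewer cells of a type and less mRNA per cell cannot be told apart. The amount of each mRNA in the cells is not analysed here.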

How the data were processed

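The authors deposited RPM, 1 value per FlyBase transcript and column. Per the submitters' processing notes, cutadapt, STAR and dm6 were used; versions, counting, strand, reads with several hits and duplicate removal are not given in the sources used here, and the loci in the tables follow another assembly, so positions are not printed. Every deposited RPM value (100%) was a whole number of reads within 0.1 read. Groups follow the sample titles; 5 tables gave 14 columns for 19 samples. Tests of replicates planned for knockdown and Myc-Armi iCLIP could not be run, since these have 1 column per condition.

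Ratios used a pseudocount of 1 RPM and a table median over transcripts averaging 5 RPM or more. CLIPPARE was fitted with limma 3.58.1 (lmFit, eBayes with trend) in R 4.3.3, two-sided, adjusted over the whole table; edgeR 4.0.16 and DESeq2 1.42.0 on the recovered reads were alternatives. The limma fit was also run on simulated reads, drawn with no shift between the libraries of a group. The control libraries here had such a shift, so that run does not check the fit on data like these. Tables, intervals and plots used Python 3.11.15 with scipy 1.17.1, pandas 2.3.3, numpy 2.4.6 and matplotlib 3.10.9. Other alternatives were the pseudocount, filter, scaling, replicate block and single libraries left out.

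The members and lists were chosen with earlier results of these data known. Named from the wider list were the 3 highest in untreated Armi iCLIP per role, the extremes of each comparison among those averaging 20 RPM or more, list transcripts past the limma threshold, and the 3 patterns most like each member; High-class list members were named after their values were seen.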

Additional observations from a re-analysis of the deposited data

How the results depend on the processing

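Counts of members at least 2-fold below the table median were 2 or 3 for Yb KD on Armi and 2 on Piwi under all 6 alternatives of pseudocount, filter and scaling. With RPM as deposited, not set against the median, the count was 1 in D862A, 1 in R949A and 1 for Piwi against Armi (against 4, 4 and 0 in the report). With equal sums of reads in the table it was 2 in R949A, and in D862A pum (-0.44) was no longer past 2-fold. With no filter the count was 1 for Piwi against Armi. As deposited, the log2 ratio turned positive for 4EHP in Yb KD Armi iCLIP (0.044) and R949A (0.066) and for pum in D862A (0.49) and R949A (0.46), because the median itself was higher than in the reference column. With equal sums of reads in the table, me31B passed 2-fold above in Yb KD Armi iCLIP (1.02) and in R949A (1.71). In CLIPPARE the limma calls, 582 or 14.5% of the transcripts tested in the report, were 45 (0.457%) with no filter, 211 (12.1%) at a filter of 20 RPM, 23.7% with libraries centred and, by edgeR, 920 (15.2%), and ran from 14 (0.358%) to 2002 (50.2%) when single libraries were left out; DESeq2 called 626. Calls in the wider list, 3 in the report, were 0 with no filter, 8 centred, 5 without trend, 6 with edgeR and 0 to 24 with single libraries left out. The 4EHP change was -0.00040 centred, -0.020 with edgeR and -0.050 with DESeq2, and none of these fits called it. The log2 change of brat ran from -2.01 to -0.92 when single libraries were left out. Replicate numbers did not pair the CLIPPARE libraries (r = 0.049 between deviations of the same number); with the replicate block limma called 545 transcripts and the adjusted p of brat was 0.117. The replicate block changed no other member's call. Of the 15 transcripts named as most like a member, 3 were named again without the Piwi columns. Low depth limits me31B most, with 50 reads in WT Myc-Armi and 46 in control KD Piwi small RNA.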
